A study of Rattus norvegicus with 16 samples.

Results

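The 38 genes described here belong to fatty acid oxidation and ketone synthesis in liver. They were listed by name, as enzymes of mitochondrial and peroxisomal fatty acid oxidation, enzymes of ketone body metabolism and targets of the receptor PPARA, and were found on the array through their RefSeq transcripts. All 38 had a probe (42 probes, 4 genes with 2). Of these, 37 passed the filter on dim signal and were tested, among 13146 transcripts tested in all. Acot1, a cytosolic acyl-CoA thioesterase, was not well above background in liver RNA on any of the 16 arrays.

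Livers came from male Sprague-Dawley rats at 21 days of age that had stayed with their own dams. The dams of the control group (C) received corn oil. The dams of 0.5M and M pups received 0.5 or 1.0 mg/kg/day of a mixture that combined methyl mercury with polychlorinated biphenyls and organochlorine pesticides, and those of AhR pups a mixture of aryl hydrocarbon receptor agonists (non-ortho polychlorinated biphenyls, dibenzodioxins and dibenzofurans) at 1.8 ng/kg/day of dioxin equivalents, all in corn oil. Each group had 4 arrays, and each array held RNA pooled from 2 pups (8 pups per group). As the labels do not give the litters, p-values measure the spread between pools and would be too small if pools shared litters. All values below are log2 ratios of liver RNA (Cy5) to a universal rat reference RNA from 14 cell lines (Cy3) on the same spots, or differences between group means of such ratios.

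Long-chain fatty acids enter the hepatocyte, are activated to acyl-CoA, and reach the mitochondrial matrix as carnitine esters. There they are shortened cycle by cycle to acetyl-CoA, much of which the suckling liver turns into ketone bodies, because milk is rich in fat. Peroxisomes shorten very long chains, microsomal CYP4A enzymes hydroxylate the omega end, and PPARA, bound with RXRA to a direct repeat of AGGTCA separated by 1 base, raises transcription of many of these genes.

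The stretches before gene starts are shown for the members with a likeness to that repeat, since the list includes targets of PPARA beside enzymes named by pathway. They come from the RefSeq promoter table (build GRCr8), which held 33 of the 38 members. Acaa2, Acadl, Cyp4a1, Decr1 and Vnn1 had no entry. In the 250 bases before the start, AGGTCANAGGTCA was searched on both strands with up to 2 mismatches in its 12 fixed letters. It was found before 5 of the 33 members (15.2%) and before 1053 of all 33469 promoters (3.15%). These counts describe letters and are not evidence of binding. Capitals mark the match, each sequence runs 5′ to 3′ along the strand of its gene, and Acadvl is given with all 250 bases because it had the smallest p-value among the members in both mixture groups. The other 4 are given with 15 bases on either side of the match.
Acadvl: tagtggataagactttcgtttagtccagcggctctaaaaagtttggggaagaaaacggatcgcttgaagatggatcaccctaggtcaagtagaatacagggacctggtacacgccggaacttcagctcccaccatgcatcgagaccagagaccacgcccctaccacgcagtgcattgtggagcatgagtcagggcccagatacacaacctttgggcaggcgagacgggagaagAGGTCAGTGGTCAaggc
Fabp1: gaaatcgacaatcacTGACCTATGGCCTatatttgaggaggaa
Slc27a2: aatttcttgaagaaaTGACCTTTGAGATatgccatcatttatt
Crat: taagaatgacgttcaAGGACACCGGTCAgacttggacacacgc
Etfa: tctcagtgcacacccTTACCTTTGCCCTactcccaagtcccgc

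The Acadvl stretch is chr10:55236706-55236955 on the minus strand. Its match has 1 mismatch and lies 17 to 5 bases before the start. The Fabp1 window is chr4:104749248-104749290 on the plus strand, and its match, on the opposite strand to the gene, has 1 mismatch and lies 77 to 65 bases before the start. The matches of Slc27a2 (chr3:134258010-134258052, plus strand), Crat (chr3:34087295-34087337, minus strand) and Etfa (chr8:64788092-64788134, minus strand) have 2 mismatches each. The aryl hydrocarbon receptor's core site TNGCGTG, searched in the same windows on both strands without mismatch, was found before 2 of 33 members (6.06%) and before 4.09% of all promoters.

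Hadha and Hadhb, the alpha and beta subunits of the mitochondrial trifunctional protein, lie head to head. The 243 bases between the Hadhb gene and the annotated start of Hadha, chr6:31907558-31907800 on the plus strand, are shown because the arrays gave separate values for the pair on either side.
Hadhb to Hadha: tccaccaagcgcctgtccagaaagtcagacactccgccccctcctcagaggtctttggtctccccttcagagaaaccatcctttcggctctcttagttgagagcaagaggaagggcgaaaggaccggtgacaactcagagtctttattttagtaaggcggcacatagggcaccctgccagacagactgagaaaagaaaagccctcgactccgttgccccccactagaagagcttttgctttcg

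No member passed the threshold in any comparison. The lowest adjusted p was 0.0991, for Acadvl in M against C (limma, Benjamini-Hochberg over all 13146 transcripts). In M against C, 0 of 37 members were called, where 42 of all transcripts (0.319%) were. In 0.5M against C, 0 of 37 were called beside 2 of all transcripts (0.0152%), and in AhR against C, 0 of 37 beside 1 (0.00761%). A moderated F-test over the 4 groups called 0 of 37 members and 23 of all transcripts (0.175%). So few transcripts were called over the whole array that a count of 0 among 37 is near the background. At an unadjusted p under 0.05, 5 members stood out in M against C (13.5%, against 10.1% of all transcripts). Of these, 4 were lower (5.61% of all transcripts were) and 1 higher (4.54%). In 0.5M against C there were 5 (13.5%, against 6.53%), all lower (3.92%), and in AhR against C there was 1 (2.7%, against 3.79%), which was higher (2.0%).

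The confidence intervals bound the differences as measured. Pdk4, Ppargc1a and, in M, Fgf21 were near background, so their intervals do not bound a difference in RNA, though the counts below include them. The 95% interval of the difference lay within 1 log2 unit, that is within 2-fold, of no difference for 36 of 37 members in M against C, 36 in 0.5M against C and 37 in AhR against C. The exceptions were Cd36 in M (interval 0.14 to 1.05) and Cpt1a in 0.5M (interval -1.11 to -0.22). Within 0.5 log2 units it lay for 27, 27 and 30 members.

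By direction, 14 members had a higher and 23 a lower mean in M than in C, with a median difference of -0.0407 (all transcripts -0.00195). In 0.5M, 10 were higher and 27 lower than C, with a median of -0.0786 (all transcripts -0.00354). In AhR, 19 were higher and 18 lower, with a median of 0.0158 (all transcripts 0.00021). Between arrays of a group, the members' median had a pooled SD of 0.0763. The split in M depended on the scaling: with arrays centred on their median in place of loess, 35 of 37 members were lower than C, with a median of -0.29 (all transcripts -0.0879) and again 0 called. As the livers were measured whole, fewer cells of a type and less RNA per cell cannot be told apart.

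**Figure D1:**
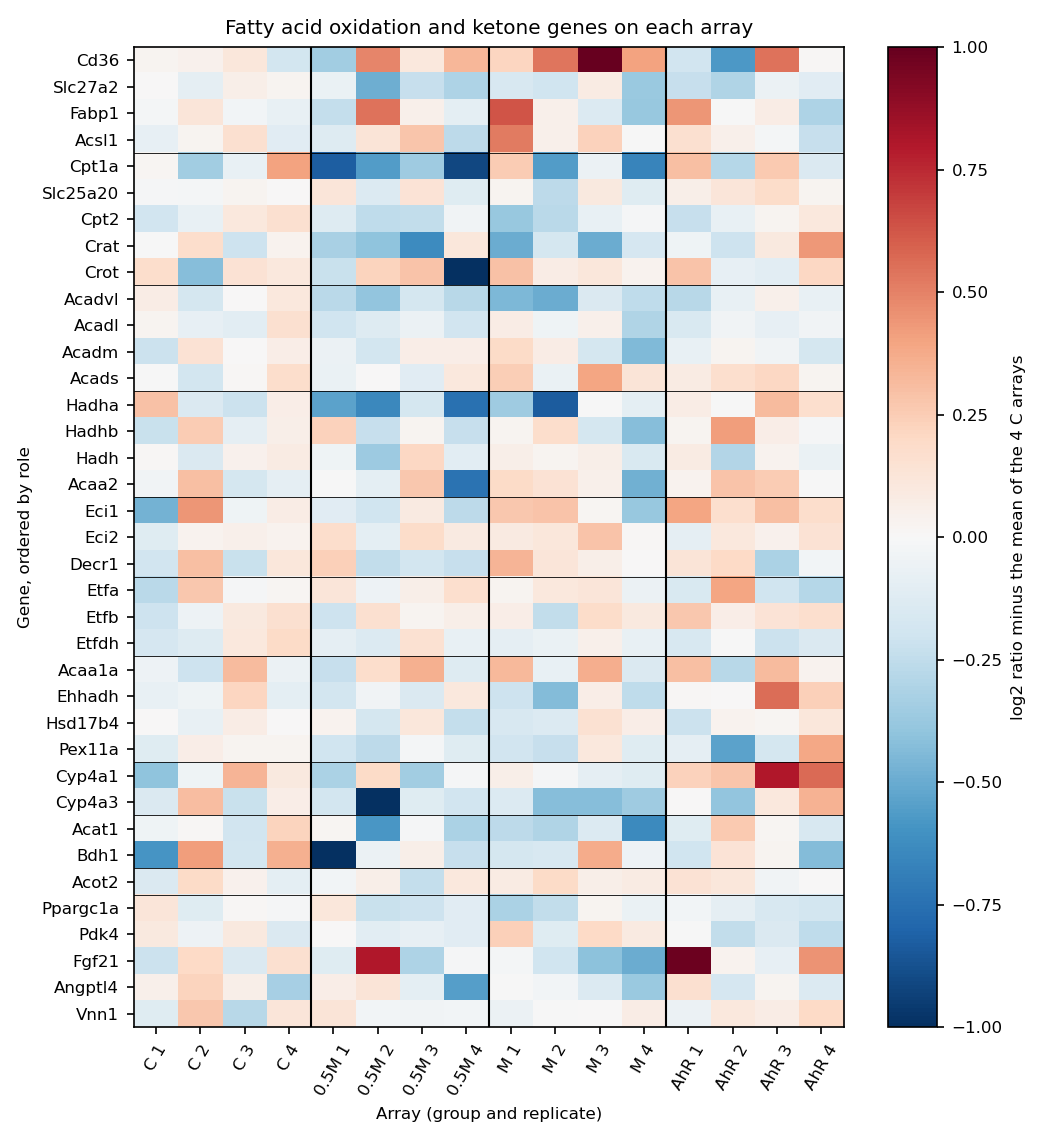
Log2 ratio of each of the 37 tested members (rows, ordered by role) on each of the 16 arrays (columns), minus the mean of the 4 C arrays. Red is higher and blue lower than the C mean, and colours stop at 1 in either direction. Most rows mix red and blue within a group. Acadvl and Cpt1a are among the rows that are blue on all 4 arrays of 0.5M, as are Slc27a2, Cpt2, Acadl, Hadha, Pex11a and Cyp4a3.

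Each array had 30367 probes, of which 7082 to 15686 were well above background in the liver channel. All 10 listed hepatocyte markers, among them Alb, Apoa1, Tf and Ttr, were well above background on all 16 arrays. The median ratio of these 10 to the reference ran from -0.6 on M 4 to 0.26 on AhR 1. The array with the fewest such probes in each group was C 1, 0.5M 2, M 1 or AhR 1, all on slide 1 of the 2 slides, each of which held 2 arrays of every group. RNA of other tissues moved with single arrays: 18 of 20 skeletal muscle markers were above all other arrays on M 2 and 0.5M 4 (by 4.65 in the median), 11 of 15 exocrine pancreas markers on M 1 and AhR 2 (by 0.59), and 6 of 8 fat markers on C 2 (by 0.71). Muscle also oxidises fatty acids, and the differences of Cd36 in M, of Cpt1a, Hadha and Acadvl, and of Cyp4a1 in AhR are given below without these 5 arrays as well.

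Relative to the reference, 13 of the 37 members were lower in liver on all 16 arrays, and no member was higher on all of them. The lowest group means of C were those of Cyp4a1 (-1.03 ± 0.307, SD, n = 4) and Cyp4a3 (-1.01 ± 0.238). That of Crat (0.50 ± 0.156) stood above the reference. Hadha stood at 0.47 ± 0.23 on its brighter probe, which has 1 spot, but its second probe gave -0.50, -0.26, -0.22 and 0.09 on C arrays 1 to 4. These levels depended on the scaling: the members' median ratio was -0.21 with loess and -1.17 with arrays centred on their median. Such ratios compare a gene with its own signal in the reference and do not rank genes by level.

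Uptake and activation was represented by Cd36, a fatty acid translocase of the cell surface, Slc27a2, a very long-chain acyl-CoA synthetase, Fabp1, the cytosolic fatty acid carrier of hepatocytes, and Acsl1, a long-chain acyl-CoA synthetase. Cd36 ratios were 0.20, 0.22, 0.29 and -0.01 on C arrays 1 to 4 and 0.39, 0.71, 1.40 and 0.58 on M arrays 1 to 4. All 4 M arrays lay above all 4 C arrays, and M 3 was the highest. The difference was 0.60 ± 0.213 (SE), or 1.51-fold, with an adjusted p of 0.314 (limma). Without M 3 it was 0.42. Without the 5 arrays with other tissue it was 0.78, but M then held only M 3 and M 4. The second Cd36 probe gave 0.31 and its groups overlapped: C 1 (0.39) lay above M 1 (0.21), M 2 (0.29) and M 4 (0.38). In AhR, Cd36 ranged from -0.40 to 0.72 and overlapped C on either side.

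Slc27a2 ratios were -0.46, -0.55, -0.40 and -0.43 in C, -0.53, -0.95, -0.69 and -0.77 in 0.5M, and -0.69, -0.76, -0.52 and -0.57 in AhR. In 0.5M and in AhR, 3 of 4 arrays lay below every C array. The only Slc27a2 probe has 1 spot on the array. The difference from C was -0.27 ± 0.102 in 0.5M (adjusted p = 0.695) and -0.17 ± 0.102 in AhR (adjusted p = 1), and in M it was -0.16.

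Fabp1 differed from C little, by 0.04 in M, 0.06 in 0.5M and 0.05 in AhR. Its highest ratios were on M 1 (0.06), 0.5M 2 (-0.03) and AhR 1 (-0.13), the arrays with the fewest probes above background in their groups. On C 1, the array with the fewest in C, it was -0.59 and not the highest of C. The part of array quality in these values was not tested. Acsl1 differed from C by 0.20 in M, 0.01 in 0.5M and -0.01 in AhR, and M 1 was again its highest array (-0.04).

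The carnitine shuttle was represented by Cpt1a, the outer membrane transferase whose step limits entry, Slc25a20, the carnitine-acylcarnitine carrier, Cpt2, the inner membrane transferase, and Crat and Crot, the short-chain and peroxisomal medium-chain transferases. Of these 5, 4 were lower than C in M and 4 in 0.5M, while 4 were higher in AhR, none past the threshold. Cpt1a had the widest difference from C of all members in either direction, in 0.5M.

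Cpt1a ratios were -0.31, -0.68, -0.41 and 0.07 on C arrays 1 to 4, -1.16, -0.89, -0.69 and -1.24 on 0.5M arrays, -0.08, -0.89, -0.39 and -0.99 on M arrays, and -0.03, -0.62, -0.07 and -0.48 on AhR arrays. All 4 arrays of 0.5M were lower than all 4 of C and than all 4 of AhR, while M spread over the ranges of both. The gap to C was narrow, with -0.69 on 0.5M 3 beside -0.68 on C 2. The difference of 0.5M from C was -0.66 ± 0.209, or 1.58-fold lower (adjusted p = 0.649). It was -0.53 on slide 1 and -0.79 on slide 2, and -0.67 without the 5 arrays with other tissue. In M the difference was -0.25, with an interval of -0.70 to 0.19. The higher dose thus had the smaller point estimate, and M and 0.5M differed by 0.41 without passing the threshold. In AhR it was 0.03.

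Cpt2 ratios were -0.66, -0.54, -0.36 and -0.31 in C, -0.60, -0.72, -0.71 and -0.50 in 0.5M, and -0.85, -0.74, -0.54 and -0.48 in M. In each mixture group 2 of 4 arrays lay below all C arrays. The difference was -0.19 ± 0.0775 in M (adjusted p = 0.416) and -0.17 ± 0.0775 in 0.5M (adjusted p = 0.748). Cpt2 was also the only member called between the slides, with slide 2 higher by 0.21 (adjusted p = 0.0332, where 1053 transcripts or 8.01% were called).

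Crat ratios were 0.50, 0.68, 0.30 and 0.54 in C and 0.01, 0.33, 0.01 and 0.34 in M, so that 2 M arrays lay below every C array. The difference was -0.33 ± 0.156 (adjusted p = 0.492). In 0.5M it was -0.31, and in AhR 0.07. Slc25a20 had a narrow C group, from -0.24 to -0.19, and all 4 AhR arrays lay above it, by 0.10 on average. The gap was minimal, as AhR 4 and C 3 are both -0.19 when rounded. Crot differed from C by 0.13, -0.19 and 0.08 in M, 0.5M and AhR, with single low arrays at C 2 (0.07) and 0.5M 4 (-0.54).

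Within the matrix, the acyl-CoA dehydrogenases take the first step for very long (Acadvl), long (Acadl), medium (Acadm) and short chains (Acads). Acadvl ratios were 0.19, -0.06, 0.12 and 0.22 on C arrays 1 to 4, -0.15, -0.28, -0.06 and -0.16 on 0.5M arrays, -0.33, -0.38, -0.03 and -0.14 on M arrays, and -0.16, 0.04, 0.17 and 0.04 on AhR arrays. Every 0.5M array and 3 of 4 M arrays were lower than every C array, and M 3 reached into the C range. The gap in 0.5M was minimal, as 0.5M 3 and C 2 are both -0.06 when rounded.

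The difference of Acadvl from C was -0.34 ± 0.0797 in M, or 1.27-fold lower (adjusted p = 0.0991), and -0.28 ± 0.0797 in 0.5M, or 1.21-fold lower (adjusted p = 0.578). Both use the same C arrays and are not independent. In M it was -0.42 on slide 1 and -0.26 on slide 2, and -0.31 without the 5 arrays with other tissue. In AhR it was -0.09, with an interval of -0.26 to 0.08. In M, the differences of the other dehydrogenases were -0.05 for Acadl, -0.09 for Acadm and 0.18 for Acads.

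The later steps of the cycle are run by Hadha and Hadhb, by Hadh, the short-chain hydroxyacyl-CoA dehydrogenase, and by Acaa2, the matrix thiolase. All 4 had a lower mean than C in both M and 0.5M, and 3 of 4 a higher mean in AhR. Hadha ratios of its brighter probe were 0.76, 0.32, 0.25 and 0.53 in C, -0.07, -0.18, 0.29 and -0.28 in 0.5M, 0.11, -0.37, 0.46 and 0.37 in M, and 0.54, 0.46, 0.78 and 0.63 in AhR. In 0.5M, 3 of 4 arrays lay below all C arrays and all 4 below all AhR arrays.

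The Hadha difference of 0.5M from C was -0.53 ± 0.158 (adjusted p = 0.603), and of M -0.32. This probe has 1 spot on the array. A second probe with 2 spots gave -0.08 in 0.5M and -0.31 in M, so the probes disagreed at the lower dose, and their mean was at -0.30 there. Without the 5 arrays with other tissue the brighter probe gave -0.48 in 0.5M. Hadhb, on the other side of the shared stretch shown above and measured with 10 spots, differed from C by -0.05 in 0.5M, -0.10 in M and 0.12 in AhR. Hadh and Acaa2 lay between -0.14 and 0.14 in all 3 comparisons with C.

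Eci1, Eci2 and Decr1 move or reduce the double bonds of unsaturated fatty acids. All 3 had a higher mean in M than in C (0.05, 0.13 and 0.13), but no interval left out 0. Eci1 spread from -1.31 to -0.40 within C alone. The electron carriers of the first step, Etfa and Etfb, and their acceptor Etfdh had differences of -0.04 to 0.05 in M and -0.04 to 0.07 in 0.5M. Etfb ratios were -0.38, -0.22, -0.07 and -0.01 in C and 0.10, -0.10, -0.03 and 0.00 in AhR. Only 2 of the 4 AhR arrays exceeded every C array, with a difference of 0.16 ± 0.0992 (adjusted p = 1).

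Of the peroxisomal members, Ehhadh is the bifunctional enzyme of straight chains, Hsd17b4 the D-bifunctional enzyme, Acaa1a a thiolase and Pex11a a peroxisome division protein. Ehhadh ratios were -0.35, -0.32, -0.06 and -0.37 in C, -0.48, -0.71, -0.21 and -0.53 in M, and -0.26, -0.27, 0.28 and -0.04 in AhR. Of the AhR arrays 2 lay above all C arrays, and 3 of 4 M arrays lay below all C arrays. Ehhadh differed from C by 0.20 ± 0.109 in AhR (adjusted p = 1) and by -0.21 ± 0.109 in M (adjusted p = 0.531). Between M and AhR the difference was -0.41, the smallest p of the members in that comparison (adjusted p = 0.181).

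Hsd17b4 lay within 0.07 of C in all 3 groups and Pex11a between -0.15 and -0.10. Acaa1a differed from C by 0.12 in M on its brighter probe and by -0.11 on the other. Acaa1b, a close copy, may share signal with it, so its values are uncertain.

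Cyp4a1 and Cyp4a3, omega hydroxylases that respond strongly to PPARA ligands in rat liver, were each measured with 1 probe. Cyp4a1 ratios were -1.43, -1.07, -0.69 and -0.93 in C, -1.35, -0.84, -1.38 and -1.04 in 0.5M, -0.97, -1.04, -1.12 and -1.15 in M, and -0.80, -0.75, -0.23 and -0.46 in AhR. The AhR arrays lay above all 4 arrays of M and of 0.5M, but only 2 of them lay above all C arrays. The difference of AhR from C was 0.47 ± 0.152, or 1.38-fold (adjusted p = 1), and it was 0.47 on each slide and 0.52 without the 5 arrays with other tissue. Cyp4a3 differed from C by 0.02 in AhR, -0.33 in M and -0.41 in 0.5M, where 0.5M 2 was far lower (-2.16) than the others. The CYP4A genes are close copies, and a probe may detect more than 1 of them.

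**Figure D2:**
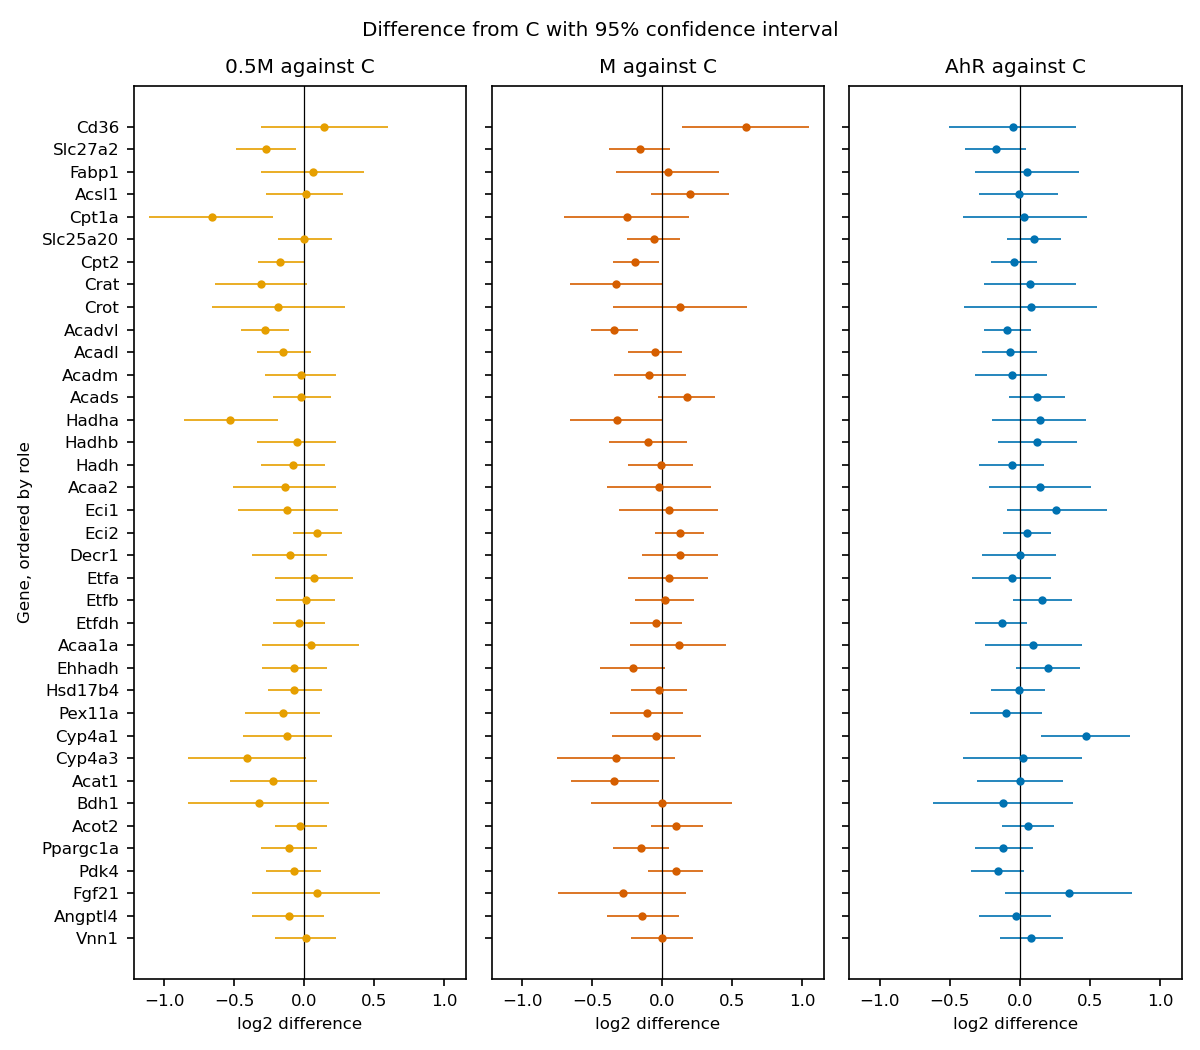
Difference of the group mean from C in log2 units for each of the 37 tested members, for 0.5M, M and AhR. Points are limma estimates and bars are 95% confidence intervals, most of which cross 0. The exceptions are Acadvl, Hadha, Cpt1a, Slc27a2 and Cpt2 to the left in 0.5M, Acadvl, Cpt2, Acat1 and Crat to the left and Cd36 to the right in M, and Cyp4a1 to the right in AhR.

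Ketone synthesis was represented by Acat1, the mitochondrial acetoacetyl-CoA thiolase, and Bdh1, which converts acetoacetate to 3-hydroxybutyrate. Acat1 ratios were -0.01, 0.04, -0.16 and 0.25 in C and -0.23, -0.27, -0.11 and -0.61 in M. Of the M arrays, 3 of 4 lay below all C arrays. The difference was -0.34 ± 0.147 (adjusted p = 0.451), it was -0.22 in 0.5M, and AhR and C had the same mean of 0.03. Bdh1 had the widest spread of all members within groups (pooled SD 0.39), from -0.60 to 0.41 in C alone, and its differences from C were 0.00 in M, -0.32 in 0.5M and -0.12 in AhR.

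Acot2, a mitochondrial acyl-CoA thioesterase nearly identical to Acot1, lay within 0.10 of C in all 3 groups. Ppargc1a, a coactivator of fasting genes, was well above background on 1 array of each group and differed from C by -0.15, -0.11 and -0.12 in M, 0.5M and AhR. Angptl4, a secreted inhibitor of lipoprotein lipase, and Vnn1, a pantetheinase, lay within 0.14 and 0.08 of C.

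Pdk4, the kinase that spares pyruvate when fat is burned, was dim. It was well above background on 2 C arrays, 1 0.5M array, 2 M arrays and no AhR array. Its ratios were -0.01, -0.16, -0.01 and -0.25 in C and -0.11, -0.35, -0.25 and -0.36 in AhR, where 2 arrays lay below all C arrays. The difference was -0.16 ± 0.0911 (adjusted p = 1), with an interval of -0.35 to 0.03. As the signal in AhR was not well above background, the size of this difference was not measured.

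Fgf21, the fasting hormone secreted by the liver, was well above background on 3 C, 4 0.5M, 1 M and 4 AhR arrays. Its ratios were -0.37, 0.04, -0.30 and 0.00 in C, -0.28, 0.64, -0.47 and -0.17 in 0.5M, -0.18, -0.36, -0.57 and -0.65 in M, and 0.82, -0.12, -0.24 and 0.29 in AhR. The groups overlapped. The highest ratios within AhR, 0.5M and M were on AhR 1, 0.5M 2 and M 1, which had the fewest probes above background in their groups. By contrast C 1, which had the fewest in C, had the lowest ratio of C. The part of array quality was not tested. The difference from C was 0.35 in AhR (interval -0.11 to 0.80) and -0.28 in M (interval -0.74 to 0.17). With 1 M array well above background, the M values lie near the floor and the size is uncertain: the difference of M from AhR was -0.63 here and ranged from -2.16 to -0.45 over the alternatives.

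**Figure D3:**
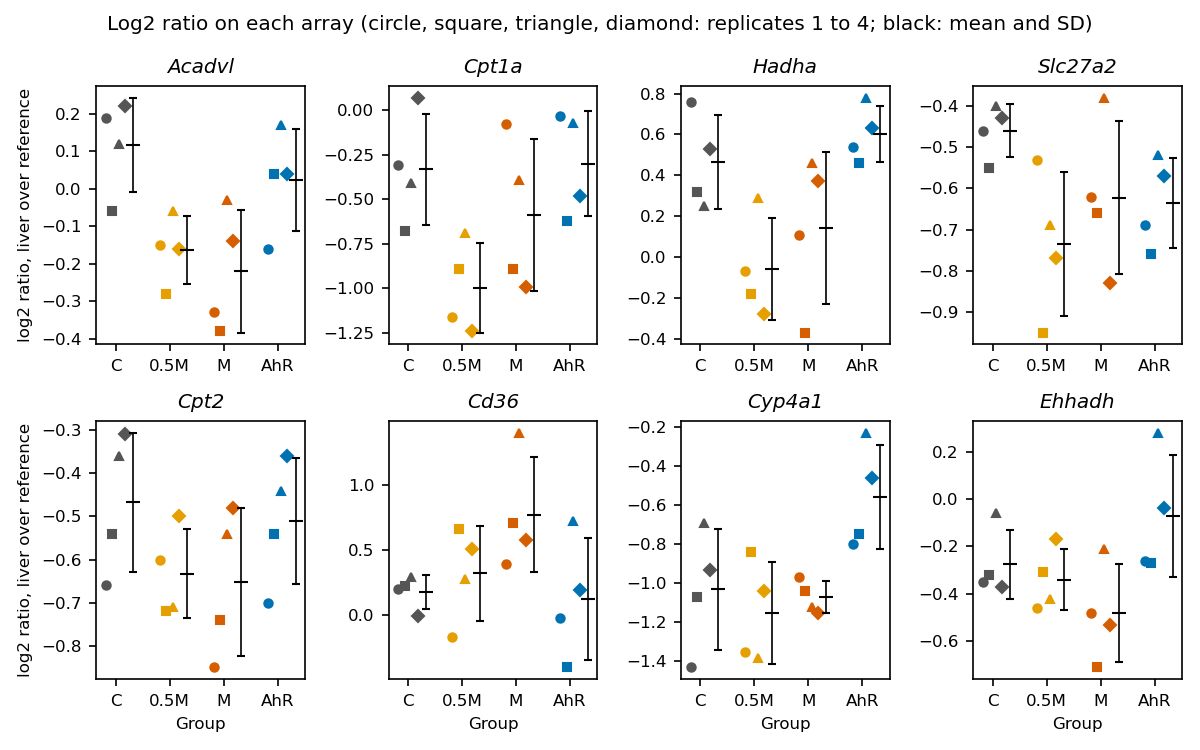
Log2 ratio of liver over reference on each array for Acadvl, Cpt1a, Hadha (brighter probe), Slc27a2, Cpt2, Cd36 (brighter probe), Cyp4a1 and Ehhadh, by group. Coloured symbols are the 4 arrays of a group and black marks the mean and SD (vertical scales differ between genes). For Acadvl and Cpt1a, 0.5M lies below C, though the nearest arrays are almost level. M lies wholly above C for Cd36, and AhR wholly above both mixture groups for Cyp4a1.

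Few members had groups that did not overlap. In M against C, 1 of 37 members (Cd36, on its brighter probe only) lay wholly above C, where 2.12% of all transcripts did. There, 0 lay wholly below (2.07%). In 0.5M, 2 members (Acadvl and Cpt1a) lay wholly below C, where 1.67% of all transcripts did, and 0 wholly above (1.38%). In AhR, 1 member (Slc25a20) lay wholly above C (0.981% of all transcripts) and 0 wholly below (1.02%). For Acadvl, Cpt1a and Slc25a20 the nearest arrays of the groups were level or almost level when rounded.

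The exposed groups were also set against each other. In 0.5M against AhR, 0 of 37 members were called (3 of all transcripts, 0.0228%). There, 28 of 37 members were lower in 0.5M, with a median of -0.10 (all transcripts -0.0016), and 8 had an unadjusted p under 0.05 (21.6%, against 9.05%), all lower in 0.5M (5.96% of all transcripts). Hadha had the smallest p, with a difference of -0.66 (adjusted p = 0.271), though its second probe gave -0.14 with overlapping arrays. It was followed by Cyp4a1 at -0.59 (adjusted p = 0.321) and Cpt1a at -0.69 (adjusted p = 0.363). In Cyp4a1, Cpt1a and Eci1, and in Hadha on its brighter probe, all 4 arrays of 0.5M lay below all 4 of AhR, where 409 of all transcripts (3.11%) did.

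In M against AhR, 0 of 37 members were called (35 of all transcripts, 0.266%). There, 9 members had an unadjusted p under 0.05 (24.3%, against 9.89%), 7 of them lower in M (5.53% of all transcripts). Of the 9, Pdk4 was near background in AhR and Fgf21 in M, so the sizes of these differences are uncertain. The only member with all 4 arrays of M below all 4 of AhR was Cyp4a1 (2.24% of all transcripts). Beside Ehhadh the 9 included Cyp4a1 at -0.51 (limma, adjusted p = 0.251), Acadvl at -0.25 (adjusted p = 0.297) and Cd36, higher in M by 0.65 (adjusted p = 0.302). In M against 0.5M, 0 of 37 were called (2 of all transcripts, 0.0152%), 22 were higher in M, and the only unadjusted p under 0.05 was that of Cd36 (0.45 higher in M, where 6.75% of all transcripts had such a p and 3.91% were higher).

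Repeated spots gave the noise between spots of an array. It does not hold the error of labelling and hybridisation, which the spread between arrays holds together with the difference between pools. Of the members, 8 were printed in 10 spots. For Cpt1a, the SE of an array's mean over its spots was 0.0494, while the SD between arrays of a group was 0.328. For Fgf21 these values were 0.0391 and 0.373, and for Eci2, the closest pair, 0.0535 and 0.107. The members' pooled SD within groups had a median of 0.20, where all transcripts had 0.162, and was highest for Bdh1 (0.39), Cd36 (0.373), Fgf21 (0.373) and Crot (0.354).

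**Figure D4:**
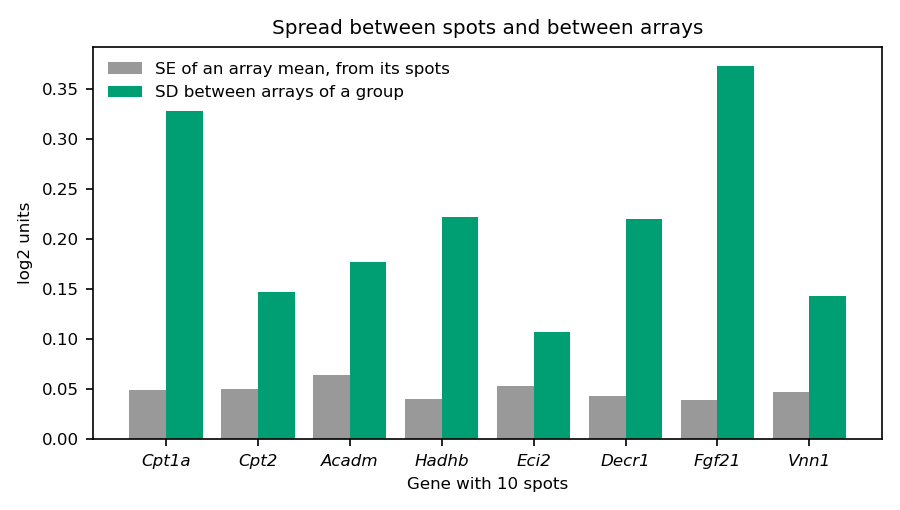
Standard error of an array's mean over its spots (grey) and SD between the arrays of a group (green), in log2 units, for the 8 members printed in 10 spots. The green bar is the taller of the pair in every gene, from 0.107 for Eci2 to 0.373 for Fgf21.

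The other genes of the pathway were taken from a list of 72, of which 67 had a probe and 63 were tested. None was called in any of the 6 comparisons. The lowest adjusted p among them was 0.0568 (limma), for a gene of mitochondrial oxidation in M against AhR. At an unadjusted p under 0.05, 7 of 63 (11.1%) differed in M against C, 8 (12.7%) in 0.5M and 4 (6.35%) in AhR, beside 10.1%, 6.53% and 3.79% of all transcripts. The median differences were 0.00294, -0.0283 and 0.0305.

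In M, the 3 with the smallest p were Acad9, a mitochondrial dehydrogenase that also assembles complex I, Ech1, a dienoyl-CoA isomerase, and Pecr, a peroxisomal enoyl-CoA reductase. Acad9 stood at -0.24 ± 0.14 in C and 0.08 ± 0.075 in M (SD, n = 4), with all M arrays above all C arrays and a difference of 0.32 ± 0.077 (adjusted p = 0.107). Ech1 stood at 0.10 ± 0.23 in C and -0.32 ± 0.0556 in M, with all M arrays below all C arrays and a difference of -0.42 (adjusted p = 0.195). Pecr was higher by 0.32 (adjusted p = 0.198).

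In 0.5M the 3 were Pex16, a peroxisome assembly factor, at -0.30 (adjusted p = 0.578), Slc16a1, the carrier of lactate and ketone bodies, at -0.42 (adjusted p = 0.601), and Phyh, the first enzyme of phytanic acid oxidation, at -0.41 (adjusted p = 0.701). In AhR the 3 were Ppara itself, Pnpla2, the triglyceride lipase of fat droplets, at -0.26, and Acsl4 at -0.24. Ppara stood at -0.26 ± 0.302 in C and 0.11 ± 0.0516 in AhR, and all 4 AhR arrays lay above all C arrays, with a difference of 0.37 ± 0.119 (adjusted p = 1 for all 3).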

How the data were processed

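RNA of 16 liver pools was hybridised to 2-colour Agilent rat arrays on 2 slides. The deposited scan files, written by Agilent Feature Extraction 10.7.3.1 per the file headers, hold for 62976 spots the median signal and local background as intensity, a LogRatio column in log10 and quality marks of the unit other (0 or 1). The authors also deposited a table of log2 ratios whose normalization is not given in the sources used here. It correlated at 0.965 to 0.991 with the same array's scan file and at most 0.882 with another's, and was used as an alternative.

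Intensities were background-corrected (normexp, offset 50) and loess-normalized within arrays with limma 3.58.1 in R 4.3.3. Outlier spots were left out and spots averaged. A probe was kept if the software marked its Cy5 signal as well above background on 4 or more of 16 arrays (14524 of 30367 probes). Symbols came from RefSeq accessions (18004 probes matched, 12363 not), and the brightest probe stood for a gene, giving 13146 transcripts. Limma fitted a mean per group and a slide term over all 16 arrays (two-sided, Benjamini-Hochberg over 13146 transcripts, threshold 0.05). The pipeline was tested on simulated data. The number of arrays limits the precision. Members, lists and rules were chosen with earlier results of these data known. Values are given per array for the 5 members with the smallest p in each comparison with C. From the pathway list, the 3 genes with the smallest p in each such comparison are named. Fgf21 was added after its values were seen.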

Additional observations from a re-analysis of the deposited data

Results flagged for a closer look

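Of 148 groups of 4 arrays (37 members in 4 groups), 8 had a highest or lowest array that stood apart from the other 3, where chance gives about 7.4. Crot was at 0.07 on C 2, with the next array at 0.60. Hadh was at -0.22 on M 4 (next -0.04), Eci2 at -0.70 on C 1 (next -0.55), and Decr1 at 0.25 on 0.5M 1 (next -0.17). Etfdh was at 0.11 on M 3 (next -0.01), Ehhadh at -0.06 on C 3 (next -0.32), and Vnn1 at 0.32 on 0.5M 1 (next 0.16). The widest gap was that of Cyp4a3, at -2.16 on 0.5M 2 (next -1.20).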

How the results depend on the processing

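In the 33 alternatives 0 of the members tested (37, or 34 with probes well above background on all 16 arrays) were called in the 6 comparisons and the F-test. Where it could be fitted, none of the 33 member differences with an unadjusted p under 0.05, or among the 5 smallest in a comparison with C, changed direction. The lowest adjusted p for Acadvl in M against C over them was 0.0798 and the highest 0.997. The alternative that scaled average intensities between arrays after loess left the log ratios as they were, so it could not differ from the main fit. The members' median difference shifted with some settings, and the cause was not tested. Median centring in place of loess gave -0.29 for M against C, -0.16 for M against 0.5M, -0.26 for M against AhR, and -1.17 for the members' ratio to the reference. Slide 1 alone gave 0.0362 for M against C, and slide 2 alone -0.10 for M against AhR. Without the 5 arrays with other tissue these medians were -0.12 and -0.11. Leaving out 1 array at a time, the median ranged from -0.0922 to 0.0154 in M against C, -0.11 to -0.0616 in 0.5M against C, -0.0117 to 0.0527 in AhR against C, 0.00728 to 0.0912 in M against 0.5M, -0.0849 to -0.00204 in M against AhR and -0.12 to -0.0721 in 0.5M against AhR. Replicate numbers were not taken to pair the arrays in the main fit. Deviations of same-numbered arrays correlated at -0.41 to 0.19, with a median of 0, above the -0.13 of other numbers on the same slide. As a hint from the data, not the design, 11 of 16 arrays correlated best with their own number among the arrays of other groups on their slide. Each slide held 2 numbers, so without pairing the odds of this for an array were about even. With the replicate block in place of the slide 0 members were called, and the lowest adjusted p in M against C was 0.132. Leaving out the array with the fewest detected probes in each group, chosen after seeing the data, called 0 members. Of all transcripts, M against C called 42, but 1 with median centring, 20 with the scanner's own ratios, 66 with array weights and 15 without those 4 arrays.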
